A study of Rattus norvegicus with 12 samples.

Results

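The genes that load peptides onto MHC class I molecules were followed in INS-1E cells, an insulin-secreting rat insulinoma line used as a β-cell model. The 7 members, Tap1, Tap2, Tapbp, Tapbpl, B2m, Nlrc5 and Erap1, were taken by gene symbol from a table of 34034 symbols, and all 7 were among the 14324 genes that passed the filter on low counts. The 12 libraries came from wild-type INS-1E cells in 4 groups of 3 libraries labelled as biological replicates. Untreated cells received no cytokine. The IL-1βlow cells received IL-1β at 10 pg/ml over 72 h, the cytokine being added anew every 24 h. A mixture of IL-1β (100 pg/ml) and IFN-γ (5 ng/ml), called CYT, was given for 16 h to the CYT cells, and the IL-1βlow + CYT cells received the low dose first and the mixture in renewed medium afterwards. The study asked what low-dose preconditioning does to the response of β-cells to an inflammatory challenge. All groups come from a single tumour-derived line, and bulk RNA from it cannot tell a change in RNA per cell from a change in the share of cells that express a gene.

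Nucleated cells display fragments of their own proteins on MHC class I molecules, each made of a heavy chain and the light chain β2-microglobulin. Peptides cut by the proteasome are pumped into the endoplasmic reticulum (ER) by the TAP transporter, trimmed there by aminopeptidases and fitted into the heavy chain by tapasin and chaperones. Interferon-γ is the classic inducer of this machinery, through IRF1 and NLRC5 among others, and raised class I on islet cells is a known feature of type 1 diabetes.

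The promoters of the 4 members whose RNA rose furthest with the cytokine mixture are shown beside that of Tapbpl. Tapbpl rose as well, by 0.98 on the log2 scale, against 2.49 for its relative Tapbp. RefSeq windows on GRCr8, from 250 bases before to 50 bases after the annotated start, matched 5 of the 7 members by symbol: Tap1, Tap2, Tapbp, Tapbpl and B2m. The reads were aligned to mRatBN7.2, so these coordinates belong to the sequences only. Capitals mark matches, on either strand, to the core of the interferon-stimulated response element (ISRE, spelled GAAA, any 2 bases and GAAA again) and to the κB motif.
Tap1, chr20:4668494-4668793, minus strand: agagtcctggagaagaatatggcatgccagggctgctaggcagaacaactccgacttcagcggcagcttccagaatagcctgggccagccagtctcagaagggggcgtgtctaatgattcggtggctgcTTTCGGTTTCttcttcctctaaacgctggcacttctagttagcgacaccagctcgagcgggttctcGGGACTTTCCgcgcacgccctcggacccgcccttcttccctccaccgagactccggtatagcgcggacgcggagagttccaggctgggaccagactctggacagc
Tap2, chr20:4652247-4652546, minus strand: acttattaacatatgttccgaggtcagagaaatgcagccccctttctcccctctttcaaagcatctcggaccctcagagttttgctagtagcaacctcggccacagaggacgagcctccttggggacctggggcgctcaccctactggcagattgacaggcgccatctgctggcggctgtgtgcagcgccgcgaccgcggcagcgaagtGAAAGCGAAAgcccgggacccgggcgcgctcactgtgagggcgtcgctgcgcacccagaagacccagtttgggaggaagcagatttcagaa
Tapbp, chr20:4967828-4968127, minus strand: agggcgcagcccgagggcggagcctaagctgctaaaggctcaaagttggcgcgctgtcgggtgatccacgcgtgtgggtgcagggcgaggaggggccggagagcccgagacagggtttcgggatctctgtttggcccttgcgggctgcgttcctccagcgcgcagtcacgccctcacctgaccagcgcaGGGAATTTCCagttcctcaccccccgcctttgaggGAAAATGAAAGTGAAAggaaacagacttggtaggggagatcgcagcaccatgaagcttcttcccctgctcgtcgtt
B2m, chr3:129549080-129549379, plus strand: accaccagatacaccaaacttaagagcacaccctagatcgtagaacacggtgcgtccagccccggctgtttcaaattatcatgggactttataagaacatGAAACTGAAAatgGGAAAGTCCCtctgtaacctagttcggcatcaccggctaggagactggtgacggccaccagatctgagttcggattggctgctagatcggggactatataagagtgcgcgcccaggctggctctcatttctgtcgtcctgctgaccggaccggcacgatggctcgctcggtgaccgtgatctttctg
Tapbpl, chr4:159715088-159715387, minus strand: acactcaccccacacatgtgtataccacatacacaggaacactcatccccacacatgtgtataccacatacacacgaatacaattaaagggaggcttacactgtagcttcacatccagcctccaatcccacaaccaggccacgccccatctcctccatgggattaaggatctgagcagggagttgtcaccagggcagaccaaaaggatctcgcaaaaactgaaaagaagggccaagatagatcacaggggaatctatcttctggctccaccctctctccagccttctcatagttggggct
An ISRE core match lay in 4 of the 5 windows, against 3.92% of all 33469 RefSeq windows of this length. It began 121 bases before the start in Tap1, on the opposite strand, and 41 bases before it in Tap2. In Tapbp a pair of overlapping matches began 26 and 20 bases before the start, and in B2m the match began 150 bases before it. The κB motif matched in Tap1, Tapbp and B2m (3 of 5 windows, against 7.51% of all), and in B2m it followed the ISRE core match without overlapping it. The Tapbpl window held neither motif. Of the other motifs searched, the GAS element (TTCNNNGAA) matched in 0 of 5 windows (8.87% of all), the CCAAT box in B2m and Tapbpl (37.5% of all), the CRE core (TGACG) in B2m (21.2% of all) and the GC box (GGGCGG) in Tap1 and Tapbp (33.1% of all). A match describes letters in a window and is not a measured binding site.

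**Figure D1:**
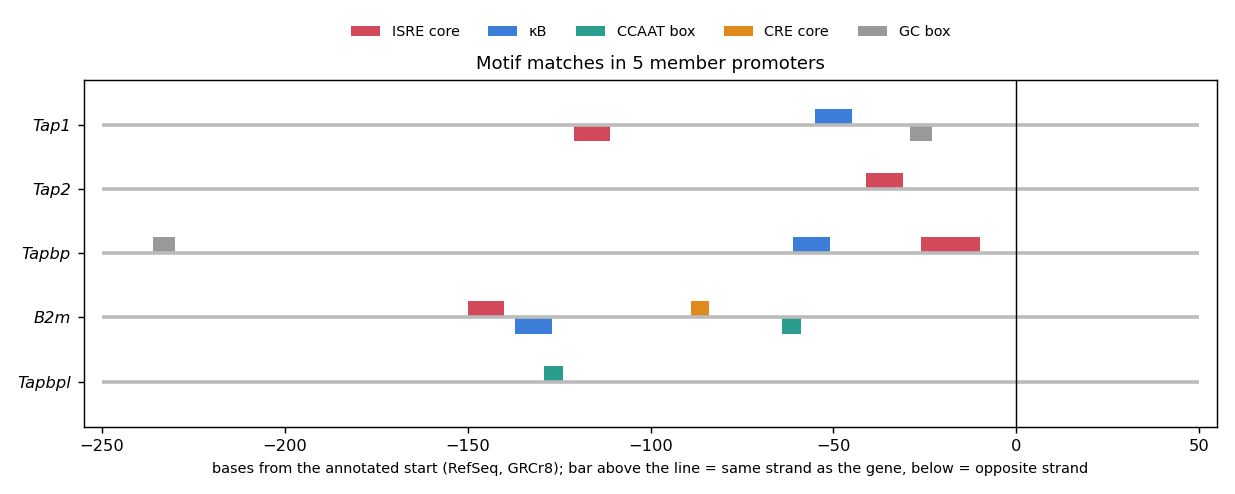
Motif matches in the promoter windows of 5 members, plotted by distance in bases from the annotated start (vertical line), with bars above a gene's line on its own strand and bars below it on the opposite strand. The ISRE core (red) is found in Tap1, Tap2, Tapbp and B2m, the κB motif (blue) in Tap1, Tapbp and B2m, and neither in Tapbpl.

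Depth was similar in all libraries, with totals of 15812640 to 20246806 counts, of which the ribosomal RNA gene Rn45s took 6.89% to 11.1%. The β-cell label held: Ins1, Ins2, Iapp and 5 more β-cell genes were detected in every group. Their summed level was 33040 to 39459 counts per 1000000 (CPM) in untreated, 28828 to 33857 in IL-1βlow, 10649 to 10948 in CYT and 15530 to 20109 CPM in IL-1βlow + CYT cells. It therefore moved opposite to Tap1. Mitochondrially encoded RNA took 5.07% to 6.90% of untreated and 2.97% to 4.60% of CYT counts. In IL-1βlow cells, which had no CYT, it took 3.60% to 5.98%, a range that overlapped both. In IL-1βlow + CYT cells it took 4.24% to 5.79%. Leukocyte markers were partly absent and partly detected at low levels. For 8 macrophage genes the sum was 0.872 to 1.72 CPM without CYT and 2.35 to 3.59 CPM with CYT alone. It was 4.44 to 5.77 CPM in IL-1βlow + CYT cells, and Ptprc, Itgam and Cd14 were at 0 in every library. Adgre1 rose with CYT by 5.67 on the log2 scale (SE 0.75), from a mean of 0.019 to 1.35 CPM. Against CYT cells, Csf1r was higher by 3.08 in IL-1βlow + CYT cells (SE 0.54). In edgeR's test each was the only call of the 3 macrophage genes tested (adjusted p = 3.4e-05 and 3.0e-04). They held 225 and 134 counts over all 12 libraries. With CYT 10% of all genes tested were called higher. In IL-1βlow + CYT against CYT cells 50.7% of all genes had an adjusted p under 0.05 in either direction. The 6 T-cell genes summed to 8.82 to 12.9 CPM, mostly Lck and Cd4, with Cd3d and Cd8b at 0. The 6 dendritic-cell genes summed to 5.68 to 9.87 CPM, mostly Zbtb46, with Itgax, Xcr1 and Clec9a at 0. Endothelial and fibroblast lists of 6 genes each summed to 11.8 to 20.1 and 12.6 to 16.4 CPM in untreated and to 3.48 to 5.01 and 6.18 to 7.31 CPM in CYT cells, with Emcn, Dcn and Lum at 0. The 4 other islet hormones, mostly glucagon (Gcg), summed to 187 to 368 CPM in untreated and 25.4 to 64.9 CPM in CYT cells. The part of these shifts in the members' values was not tested.

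With CYT alone, the transporter, tapasin and the light chain rose several-fold. Levels are given as CPM of a library total scaled by the trimmed mean of M-values, which do not correct for transcript length and so are compared only between groups. A member passed when its adjusted p was under 0.01 and its log2 fold change was at least 1 in size (0.6 for IL-1βlow against untreated cells), by the quasi-likelihood test of edgeR, adjusted over all 14324 genes after Benjamini and Hochberg. Under this rule 4 of 7 members were higher in CYT than in untreated cells, Tap1, Tap2, Tapbp and B2m, where 10% of all genes tested were called higher. All 7 had an adjusted p under 0.01 in the upward direction (25.2% of all genes), and in all 7 each CYT library lay above each untreated library (34% of all genes). The median log2 fold change was 2.04 over the members and -0.04 over all genes tested.

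Tap1 and Tap2 encode the partner chains of the TAP peptide transporter. Tap1 stood at 23.3, 21.0 and 23.4 CPM in untreated replicates 1, 2 and 3, at 25.4, 22.1 and 22.3 CPM in IL-1βlow, at 143, 220 and 226 CPM in CYT and at 84.0, 75.8 and 64.0 CPM in IL-1βlow + CYT cells. Untreated and IL-1βlow libraries overlapped, IL-1βlow + CYT libraries lay apart between these and the CYT libraries, and CYT replicate 1 was well below the other two. Its CYT rise was 3.12 on the log2 scale (SE 0.16, adjusted p = 1.1e-09), an 8.70-fold change. Without CYT replicate 1 it was 3.34.

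Tap2 stood at 24.5, 25.7 and 22.7 CPM in untreated, 27.4, 26.1 and 20.8 CPM in IL-1βlow, 90.1, 106 and 104 CPM in CYT and 74.7, 60.1 and 52.8 CPM in IL-1βlow + CYT cells. The order of the groups was that of Tap1, but the steps were smaller: the CYT rise was 2.04 (SE 0.14, adjusted p = 1.3e-08), or 4.11-fold. The ratio of Tap1 to Tap2 counts within a library, 0.933 ± 0.108 in untreated cells (SD, n = 3), was accordingly 1.95 ± 0.316 in CYT cells, with no overlap between the groups. An exact two-sided permutation test gave p = 0.1, the smallest that 3 against 3 libraries allow.

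Tapbp encodes tapasin, which bridges TAP and the class I heavy chain and favours tightly bound peptides. Its levels were 148, 164 and 158 CPM in untreated, 163, 181 and 162 in IL-1βlow, 814, 915 and 920 in CYT and 500.4, 544 and 474 CPM in IL-1βlow + CYT cells. Groups with and without CYT were far apart, and the preconditioned cells again took the middle place. The CYT rise was 2.49 (SE 0.09, adjusted p = 3.3e-11), 5.63-fold. Tapbpl encodes TAPBPR, a tapasin relative that edits peptides outside the loading complex. It stood at 56.9, 60.1 and 56.7 CPM in untreated, 67.3, 71.9 and 61.2 in IL-1βlow, 112, 112 and 118 in CYT and 117, 118 and 108 CPM in IL-1βlow + CYT cells. Here both groups given CYT overlapped, and all of their libraries were above those of the other groups. The difference between CYT and untreated cells was 0.98 (SE 0.08, adjusted p = 1.2e-07), just under the fold minimum of 1. It passed at 1.01 with the size factors of DESeq2 (relative log expression), and without CYT replicate 1 at 1.03. Within a library, the Tapbp to Tapbpl ratio was 2.71 ± 0.0922 in untreated and 7.74 ± 0.450 in CYT cells (SD, n = 3), also without overlap (exact permutation p = 0.1).

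B2m encodes β2-microglobulin, the light chain that every classical class I molecule needs to reach the surface. It was at 144, 168 and 144 CPM in untreated, 219, 250.0 and 219 in IL-1βlow, 1024, 1037 and 1134 in CYT and 702, 757 and 823 CPM in IL-1βlow + CYT cells. No pair of groups overlapped. Between untreated and IL-1βlow cells only B2m and Tapbpl were without overlap, with all IL-1βlow libraries above the untreated ones, as for 13% of all genes tested. The CYT rise was 2.81 (SE 0.10, adjusted p = 3.3e-11), 7.01-fold.

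Nlrc5, the transactivator of class I genes, and Erap1, the aminopeptidase that trims peptides in the ER, differed least. Nlrc5 stood at 10.2, 8.88 and 9.48 CPM in untreated, 8.05, 10.9 and 9.87 in IL-1βlow, 15.9, 18.1 and 19.5 in CYT and 13.8, 18.8 and 22.3 CPM in IL-1βlow + CYT cells. Its difference between CYT and untreated cells was 0.91 (SE 0.17, adjusted p = 3.8e-04), under the fold minimum, which it passed at 1.02 without CYT replicate 1. Nlrc5 overlaps a pseudogene and a long non-coding RNA in GRCr8, where none of the other members overlaps an annotated gene. The reads were counted on mRatBN7.2, in which overlaps were not checked. The strand setting of the counting is not given in the sources used here. The Nlrc5 counts may therefore be less certain than those of the other members, which was not tested. Erap1 stood at 81.4, 92.4 and 83.3 CPM in untreated, 59.7, 62.2 and 81.6 in IL-1βlow, 106, 111 and 130 in CYT and 103, 113 and 129 CPM in IL-1βlow + CYT cells. For this gene the CYT and untreated libraries differed by 0.43 (SE 0.12, adjusted p = 0.0075), the smallest difference among the members.

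**Figure D2:**
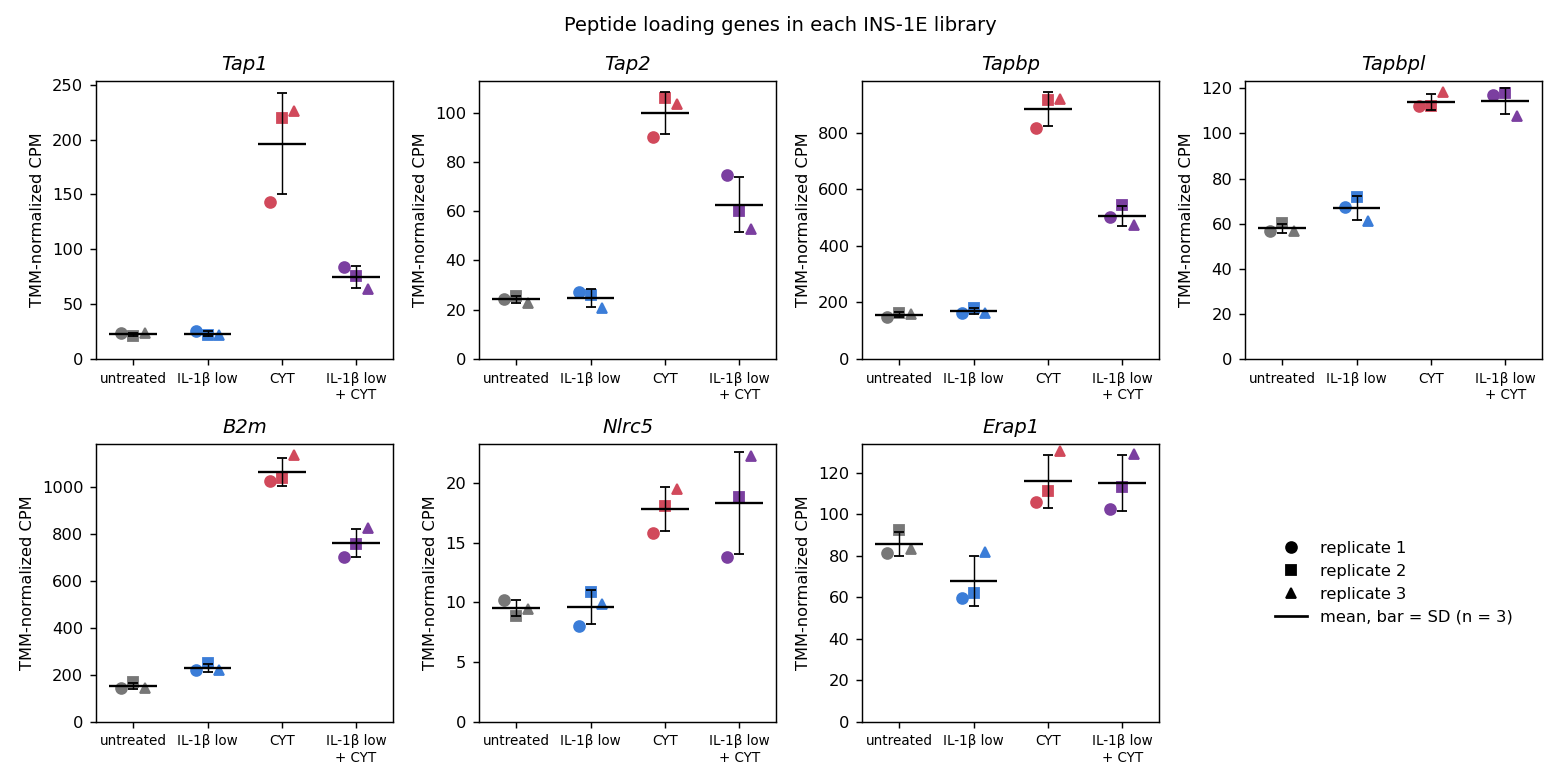
CPM (linear axis from 0) of the 7 members in each of the 12 libraries, with 1 panel per gene, symbols for replicates, and a line and bar for the mean and SD of 3 libraries. Tap1, Tap2, Tapbp and B2m are highest in CYT and intermediate in IL-1βlow + CYT cells, whereas Tapbpl, Nlrc5 and Erap1 overlap between these groups.

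Low-dose IL-1β by itself took no member past the threshold in edgeR's test, and B2m, with the highest fold change of the members, came closest to it. Of the 7 members 0 passed in IL-1βlow against untreated cells, where 0.433% of all genes were called in either direction and 0.265% were called higher. At an unadjusted p under 0.05 there were 3, B2m, Tapbpl and Erap1, where 13.8% of all genes were past that limit. B2m alone had an adjusted p under 0.01 in the upward direction, as 0.321% of all genes did. It differed by 0.59 (SE 0.09, adjusted p = 0.0060, 95% confidence interval 0.39 to 0.79), 1.51-fold, which missed the fold minimum of 0.6 by less than its error. It passed at 0.61 both with the size factors of DESeq2 and in DESeq2's Wald test, and in the leave-one-out fits its log2 fold change ran from 0.52 to 0.67, with a highest adjusted p of 0.050. The log2 fold changes of the others were 0.05 for Tap1 (95% confidence interval -0.30 to 0.39), 0.03 for Tap2, 0.11 for Tapbp, 0.21 for Tapbpl, 0.01 for Nlrc5 and -0.34 for Erap1 (-0.61 to -0.07), with adjusted p between 0.26 and 0.98. The ratio of B2m to Tap1 counts within a library was 6.78 ± 1.07 in untreated and 9.91 ± 1.34 in IL-1βlow cells (SD, n = 3), without overlap (exact permutation p = 0.1).

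When preconditioned cells were challenged, the same 4 members passed against untreated cells, though with smaller rises. In IL-1βlow + CYT against untreated cells the log2 fold changes were 2.32 for B2m (SE 0.10, adjusted p = 4.2e-10), 1.73 for Tap1 (SE 0.16), 1.69 for Tapbp (SE 0.09) and 1.36 for Tap2 (SE 0.13), so 4 of 7 members were called higher where 3.85% of all genes were. Tapbpl at 0.98 and Nlrc5 at 0.94 had adjusted p of 4.2e-07 and 9.4e-04 under the fold minimum, and Erap1 at 0.42 had an adjusted p of 0.024. Against IL-1βlow cells, which received the same conditioning without the challenge, 4 of 7 were again called higher (2.92% of all genes): B2m by 1.73, Tap1 by 1.68, Tapbp by 1.59 and Tap2 by 1.33. These comparisons share the IL-1βlow + CYT libraries. Erap1, with its lowest mean in IL-1βlow cells (67.8 CPM over the 3 libraries listed above), was at 0.76 in this comparison (SE 0.13, adjusted p = 6.4e-04), under the fold minimum.

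Directly against CYT cells, the preconditioned and challenged cells held less Tap1, Tap2, Tapbp and B2m RNA, whereas the log2 fold changes of Tapbpl, Nlrc5 and Erap1 were close to 0 with intervals on both sides of it. Tap1 fell by 1.39 on the log2 scale (SE 0.15, adjusted p = 4.2e-06), from 196 ± 46.1 to 74.6 ± 10.1 CPM (SD, n = 3), and was the 1 member that passed, where 5.92% of all genes were called lower. Tapbp, with a log2 fold change of -0.80 (SE 0.08, adjusted p = 3.3e-06), Tap2 with -0.68 (SE 0.13, adjusted p = 5.9e-04) and B2m with -0.49 (SE 0.09, adjusted p = 6.1e-04) were under the fold minimum. These 4 members with an adjusted p under 0.01 stand against 19.2% of all genes that were lower by that criterion, and each of their IL-1βlow + CYT libraries lay below each CYT library, as for 27.6% of all genes. The log2 fold change was 0.00 for Tapbpl (95% confidence interval -0.17 to 0.17), 0.04 for Nlrc5 (-0.32 to 0.39) and -0.01 for Erap1 (-0.27 to 0.26). A difference of the size of that in Tap1 lies outside all of these intervals. Over the 7 members the median was -0.49, and over all genes 0.02.

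Set against the log2 change of CYT from untreated cells, that of IL-1βlow + CYT from untreated cells amounted to 55.3% for Tap1, 66.9% for Tap2, 67.8% for Tapbp and 82.7% for B2m. For Tapbpl, Nlrc5 and Erap1 it was 100.2%, 104% and 97.7%. The shares depend on the baseline and the scale. Taken from IL-1βlow cells, the log2 change of IL-1βlow + CYT cells was 53.8%, 65.4%, 63.6% and 61.6% of the CYT change for Tap1, Tap2, Tapbp and B2m, and 79.1%, 103% and 176% for Tapbpl, Nlrc5 and Erap1. On the linear CPM scale, from untreated cells, Tap1 was at 30.0% and B2m at 66.7%. The ratios within a library showed the same unequal steps. The Tap1 to Tap2 ratio was 1.20 ± 0.0693 in IL-1βlow + CYT cells, between its untreated and CYT values, and the Tapbp to Tapbpl ratio was 4.43 ± 0.166. The B2m to Tap1 ratio was 10.4 ± 2.29 in IL-1βlow + CYT and 5.63 ± 1.33 in CYT cells (SD, n = 3), without overlap (exact permutation p = 0.1). Within the IL-1βlow + CYT group, replicate 3 had the lowest Tap1, Tap2, Tapbp and Tapbpl and the highest B2m, Nlrc5 and Erap1 levels.

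**Figure D3:**
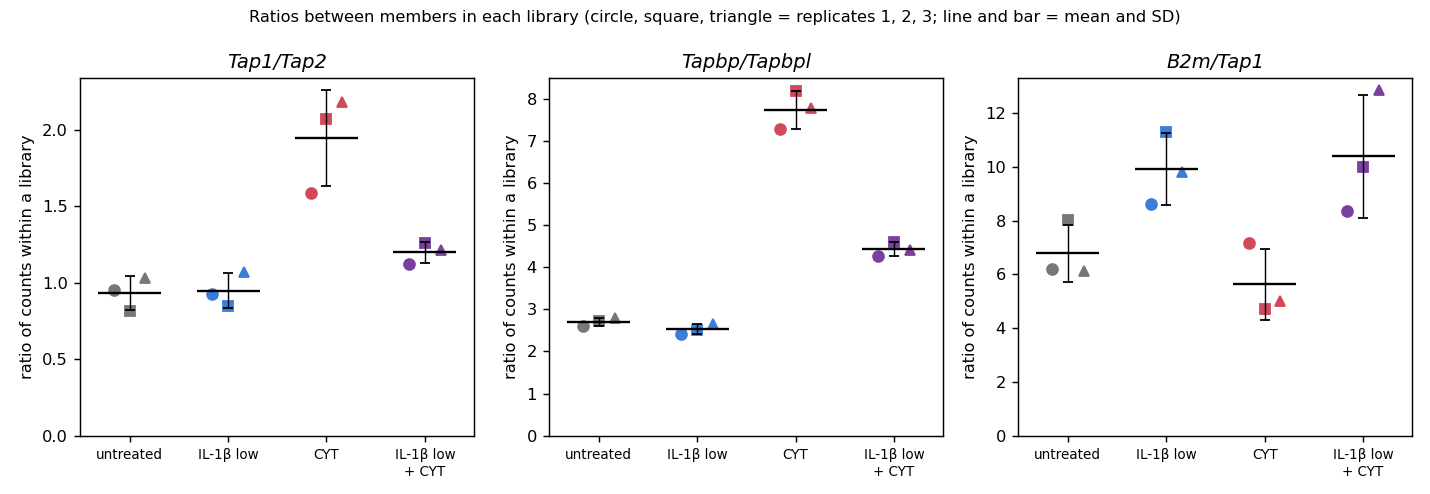
Ratios of raw counts between pairs of members within each library (linear axis from 0), with symbols for replicates 1 to 3 and a line and bar for the mean and SD. Tap1 over Tap2 and Tapbp over Tapbpl are highest in CYT cells, at 1.95 and 7.74, while B2m over Tap1 is higher in both preconditioned groups, at 9.91 and 10.4.

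The interaction term asked whether the CYT change differed between preconditioned and naive cells. It was called lower for 2 of 7 members (5.2% of all genes): Tap1, with -1.44 on the log2 scale (SE 0.22, adjusted p = 2.1e-04), and B2m, with -1.08 (SE 0.13, adjusted p = 4.0e-05). For B2m the term joined a higher level before the challenge to a lower level after it. Tapbp at -0.91 (SE 0.12, adjusted p = 7.0e-05) and Tap2 at -0.70 (SE 0.19, adjusted p = 0.0093) were under the fold minimum, so 4 of 7 members had an adjusted p under 0.01 downward, against 12.5% of all genes. The term was -0.20 for Tapbpl (95% confidence interval -0.44 to 0.04), 0.03 for Nlrc5 (-0.49 to 0.55) and 0.33 for Erap1 (-0.05 to 0.71), with adjusted p of 0.17, 0.94 and 0.16.

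**Figure D4:**
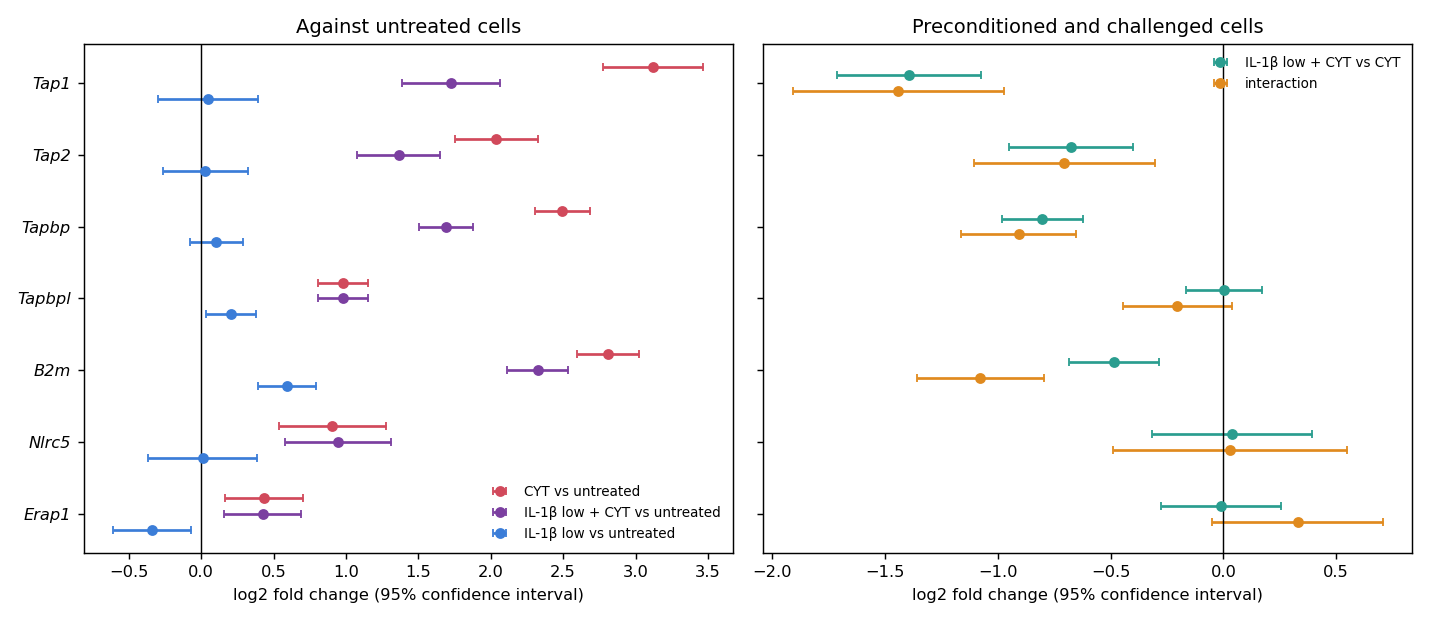
Log2 fold changes of the 7 members with 95% confidence intervals, on the left for the 3 treated groups against untreated cells and on the right for IL-1βlow + CYT against CYT cells and for the interaction term. Tap1, Tap2, Tapbp and B2m lie left of 0 on the right panel, from -1.39 for Tap1 to -0.49 for B2m against CYT cells, and the intervals of Tapbpl, Nlrc5 and Erap1 include 0.

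The remaining class I pathway was read from lists of its genes. The heavy chains that B2m pairs with, the rat RT1 class I genes, gave 37 symbols, of which 27 passed the filter on low counts. Of these 25 rose with CYT (10% of all genes were called higher), with a median log2 fold change of 2.26, among them RT1-CE10 with 3.27 (SE 0.12), RT1-S3 with 2.94 (SE 0.18), RT1-CE4 with 2.94 (SE 0.14) and RT1-M2, which had at most 7 counts in an untreated and 20 to 31 in a CYT library. In IL-1βlow + CYT against CYT cells 5 were called lower (5.92% of all genes) and 23 had an adjusted p under 0.01 in that direction (19.2% of all genes), with a median of -0.59. RT1-S3 fell furthest, by 1.89 (SE 0.17, adjusted p = 9.0e-07), from 183 ± 52.9 to 49.2 ± 1.81 CPM (SD, n = 3). Without CYT replicate 2, 3 of these calls were left. The interaction was called lower for 16 (5.2% of all genes). With IL-1βlow alone 0 of 27 passed in edgeR's test, 15 had an unadjusted p under 0.05 (13.8% of all genes), DESeq2 called 1 (RT1-CE13) and the median was 0.31, while RT1-A3 at 0.57 and RT1-CE5 at 0.55 had adjusted p of 0.0071 and 0.0062 below the fold minimum, as B2m did. These RT1 genes are near-identical copies in large part, so the split of reads between them is uncertain.

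The immunoproteasome swaps inducible catalytic subunits into the proteasome and is capped by the PA28 activator. All 5 of its listed genes rose with CYT (10% of all genes were called higher): Psmb8 by 3.59 (SE 0.12), Psmb9 by 3.30 (SE 0.14), Psmb10 by 2.19 (SE 0.14), Psme1 by 1.75 (SE 0.11) and Psme2 by 1.33 (SE 0.14). Psmb9 lies head to head with Tap1 in GRCr8, their annotated starts being 457 bases apart on opposite strands. Against CYT cells Psmb8 fell by 1.01 in IL-1βlow + CYT cells (SE 0.10, adjusted p = 3.0e-06), a call lost without CYT replicate 2 or without IL-1βlow + CYT replicate 3, and Psmb9 was at -0.67 (SE 0.12, adjusted p = 3.7e-04), under the fold minimum. Psmb10, Psme1 and Psme2 were at -0.28, -0.18 and 0.21, with adjusted p of 0.097 to 0.20. Of the constitutive catalytic subunits Psmb5, Psmb6 and Psmb7, 0 of 3 passed with CYT and 2 had an unadjusted p under 0.05 (65.9% of all genes), at log2 fold changes of -0.16, 0.36 and 0.42.

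The genes for folding class I molecules in the ER also serve many other proteins. Of 7, including calreticulin, calnexin and the ERp57 gene Pdia3, 0 passed with CYT, although all 7 had an unadjusted p under 0.05, as 65.9% of all genes did, and the median was -0.26. Hspa5 (BiP) at -0.66 and Pdia3 at -0.46 had adjusted p of 1.1e-04 and 0.0023, under the fold minimum, and Prkcsh was at 0.42 (adjusted p = 0.0037). Among 8 other peptidases that act on antigenic peptides, Lnpep, the endosomal counterpart of Erap1, fell with CYT by 1.12 (SE 0.17, adjusted p = 6.6e-05), a call lost without untreated replicate 1 or CYT replicate 2. Lap3 at 0.68 and Thop1 at 0.66 had adjusted p of 5.1e-06 and 1.9e-04 under the minimum. These are 2 of 8 with an adjusted p under 0.01 upward, against 25.2% of all genes. Downward and also under the minimum were Nrdc at -0.63 (adjusted p = 5.5e-04), Ide at -0.38 (adjusted p = 0.0023) and Blmh at -0.27 (adjusted p = 0.0050). Of the 8 peptidases 6 had an unadjusted p under 0.05, where 65.9% of all genes did. Of 6 class I-like genes 2 could be tested, Cd1d1 at 0.41 and Hfe at -0.04, and neither passed.

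The regulators of class I transcription were a mixed group. Of 18 tested, 8 rose with CYT, where 10% of all genes were called higher, among them Irf7 by 3.62 (SE 0.20), Irf1 by 2.96 (SE 0.16), Nfkb1 by 1.95 (SE 0.10), Stat2 by 1.64 (SE 0.10), Irf2 by 1.20 (SE 0.09), Irf9 by 1.10 (SE 0.15) and Ciita, the class II counterpart of Nlrc5. Ciita had at most 4 counts in an untreated library, 572 to 786 in a CYT library and 75 to 118 in an IL-1βlow + CYT library. Against CYT cells 3 were called lower in IL-1βlow + CYT cells (5.92% of all genes), Irf7 by -2.99 (SE 0.19, adjusted p = 4.9e-08), Ciita by -2.71 (SE 0.22, adjusted p = 3.3e-07) and Irf1 by -1.10 (SE 0.15, adjusted p = 2.9e-05). With or without the fold minimum met, 9 of 18 had an adjusted p under 0.01 downward (19.2% of all genes). Below the minimum these included Stat2 at -0.92, Nfkb1 at -0.88, Irf9 at -0.84 and Irf2 at -0.53. Without CYT replicate 1 the count of genes called was 6, Stat2 and Irf9 included. Without CYT replicate 3 it was 2, the call of Irf1 being lost. Nfya, a subunit of the factor that binds CCAAT boxes, was 0.96 higher (SE 0.10, adjusted p = 3.0e-06). Of the 7 genes of the IFN-γ receptor pathway 0 passed with CYT and 5 had an unadjusted p under 0.05 (65.9% of all genes). Ifngr1, Ifngr2, Jak1 and Socs3, 4 of the 7, had adjusted p under 0.01 upward (25.2% of all genes), at 0.71, 0.56, 0.49 and 0.40. In IL-1βlow + CYT against CYT cells 3 of the 7 had adjusted p under 0.01 downward (19.2% of all genes). They were Socs3 at -0.76, Jak1 at -0.52 and Ifngr1 at -0.42, whereas Ifngr2 was higher by 0.38 (adjusted p = 0.0026). With IL-1βlow alone 0 of these 18 regulators passed in edgeR's test (0.433% of all genes were called in either direction). At an unadjusted p under 0.05 there was 1 (13.8% of all genes). Of the immunoproteasome genes 0 of 5 passed and 3 had an unadjusted p under 0.05, against the same shares of all genes. These were Psmb9 at 0.43 (adjusted p = 0.17), Psme1 at 0.41 (adjusted p = 0.079) and Psmb8 at 0.34 (adjusted p = 0.21). Psme2 and Psmb10 were at 0.25 and 0.23 (adjusted p = 0.45 and 0.48).

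**Figure D5:**
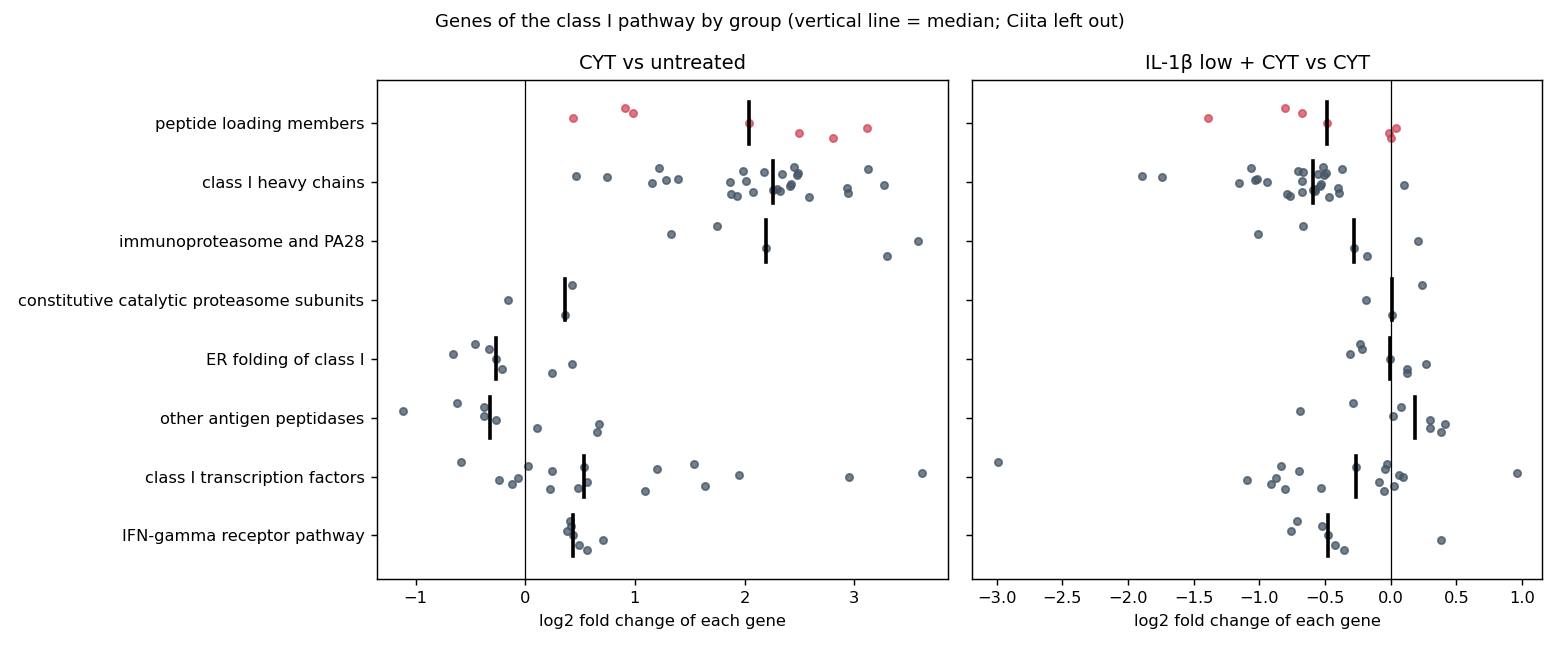
Log2 fold change of each tested gene of the class I pathway, by list, for CYT against untreated cells (left) and IL-1βlow + CYT against CYT cells (right), with a vertical line at each list's median and Ciita left out. Left and right medians are 2.04 and -0.49 for the members (red), 2.26 and -0.59 for heavy chains and 2.19 and -0.28 for the immunoproteasome. The IFN-γ receptor pathway (0.43 and -0.48) and the class I transcription factors (0.55 and -0.40 with Ciita counted in) share these signs. Medians are 0.36 and 0.01 for constitutive subunits, -0.26 and -0.002 for ER folding genes and -0.32 and 0.19 for other peptidases.

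Across the 12 libraries the members ran together to different degrees. Pearson's r of log2 CPM, given as a description since the points share 4 groups, was highest between Tap2 and Tapbp at 0.988 and lowest between Tapbpl and Erap1 at 0.747. Among 11460 genes with a mean log2 CPM over 2, the 5 closest in pattern to Tap1 over these libraries were Syt9, Parp3, Tnks1bp1, Irf1 and RT1-CE15, with r of 0.996 to 0.992. Each was higher with CYT, by 1.58 (Tnks1bp1) to 2.96 (Irf1), and lower in IL-1βlow + CYT than in CYT cells, by -0.74 (Tnks1bp1) to -1.10 (Irf1). As the genes were picked by likeness to Tap1 over these same libraries, the directions shared with Tap1 follow from the choice. Among the 5 closest to Nlrc5 were Rnf213, Exoc6, Gng12 and Dtx3l, with r of 0.956 to 0.944. Their log2 fold changes with CYT ran from 1.09 (Dtx3l) to 1.35 (Exoc6), and those of IL-1βlow + CYT against CYT cells from -0.22 (Rnf213) to 0.07 (Gng12), with adjusted p of 0.20 or more. This likeness to Nlrc5 is likewise set by how the genes were picked.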

How the data were processed

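The authors checked the reads of poly(A) RNA libraries with FastQC, trimmed them, aligned them to mRatBN7.2 and assigned them to genes by featureCounts. What was deposited are raw counts by gene symbol, not normalized, and 0 columns were left unused. From these counts edgeR 4.0.16 (R 4.3.3) fitted a quasi-likelihood model with a group factor over all 12 libraries, with TMM scaling, on the 14324 genes above a CPM of 1 in at least 2 libraries. Adjusted p-values are Benjamini-Hochberg over these genes, and the fit left 8 residual degrees of freedom. A gene was called at an adjusted p under 0.01 with a log2 fold change beyond 1 in either direction (0.6 for IL-1βlow against untreated cells). Reads lack molecular identifiers, and depth bears on counting error, not on the spread between replicates. The p-values set a group difference against the spread between replicate libraries that the fit estimated. The fit was tested on simulated data. Members and lists were chosen with earlier results of these data known. All 7 members are named, with up to 4 genes per list by the size of the CYT change among those called, further list genes with a role as values, and genes among the 5 nearest to Tap1 and to Nlrc5. Some genes that this rule takes in are not reported here. Stat2, Irf2, Irf9 and the receptor pathway genes were named after their values were seen. The labels do not say whether libraries with the same replicate number were paired. Correlations of same-numbered deviations ran from 0.11 to 0.50 among the 3 treated groups and from -0.18 to 0.18 with untreated cells. Alternatives were DESeq2 1.42.0, its size factors, the exact test, other filters, a replicate block, fits of 2 groups and leave-one-out fits.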

Additional observations from a re-analysis of the deposited data

Results flagged for a closer look

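Tap1 and B2m were the members whose CYT change differed between preconditioned and naive cells past the fold minimum, by edgeR's interaction term. For Tap1 the log2 difference between the CYT changes was -1.44 (adjusted p = 2.1e-04): the change was 3.12 without and 1.68 with preconditioning, and it was positive in both. For B2m it was -1.08 (adjusted p = 4.0e-05), with changes of 2.81 and 1.73. Leaving out each library in turn gave -1.65 to -1.34 for Tap1 and -1.19 to -1.04 for B2m, so both stayed called in every such fit.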

How the results depend on the processing

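Of 616 member values under the alternatives, 553 kept their direction and their side of the threshold, 31 newly passed, 0 were lost and 32 changed sign, none of the latter called. With an adjusted p under 0.05 and no fold minimum, the members called were 7 for CYT against untreated (62.3% of all genes called in either direction), 1 (B2m) for IL-1βlow against untreated (1.35%), 4 for IL-1βlow + CYT against CYT (50.7%), 7 against untreated (21.8%), 7 against IL-1βlow (13%) and 4 for the interaction (37.3%). In IL-1βlow against untreated cells the count of 0 became 1 (B2m) with DESeq2's size factors, in DESeq2's Wald test and without the filter on low counts. Leaving out 1 library at a time gave 4 to 6 members for CYT against untreated (6 without CYT replicate 1), 0 to 1 for IL-1βlow against untreated (1 without IL-1βlow replicate 3), 1 for IL-1βlow + CYT against CYT, 4 to 5 against untreated and against IL-1βlow, and 2 for the interaction. The replicate block changed no call of a member (4, 0, 1, 4, 4 and 2 called in the 6 comparisons). Of 12 libraries 9 correlated best with their own number in the other groups, a hint from the data. The block moved the count over all genes for IL-1βlow against untreated cells from 62 to 141, where DESeq2 gave 138 and the fit without the filter gave 229.

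Sign changes concerned values near 0, and the cause was not tested. In IL-1βlow + CYT against CYT cells Tapbpl went from 0.0021 to -0.017 with DESeq2's size factors and in its Wald test, -0.028 without the filter, -0.020 with at least 10 counts in every library, -0.000250 with the replicate block and -0.00193 with only the 2 groups. Nlrc5 went to -0.00111 with the replicate block in IL-1βlow against untreated cells, and its interaction to -0.00569 and -0.00582 with DESeq2's size factors and Wald test and to -0.025 without the filter. In leave-one-out fits the sign changed for Tap1 (-0.0255 to 0.0768), Tap2 (-0.0528 to 0.139) and Nlrc5 (-0.10 to 0.12) in IL-1βlow against untreated cells, for Tapbpl (-0.0465 to 0.0439), Nlrc5 (-0.12 to 0.17) and Erap1 (-0.105 to 0.0539) in IL-1βlow + CYT against CYT cells, and for the Nlrc5 interaction (-0.13 to 0.17). Among the lists, RT1-CE13 passed in IL-1βlow against untreated cells with DESeq2, the exact test, the unfiltered table and the replicate block, an alternative run after seeing the data. Nlrc5, with the fewest counts of the members, had the widest intervals.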
